A study of Mus musculus with 18 samples.

Results

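Wild-type CD4+ T cells that had received XCT790 were compared with stimulated CD4+ T cells of mice without ERRα, the estrogen-related receptor that Esrra encodes. The 2 groups were chosen by their sample titles and hold 3 arrays each, 6 of the 18 arrays of the series. All probe sets that the array annotation ties to a single gene and that reached log2 4 on at least 3 of the 18 arrays were tested, which left 10691 of 20380 such probe sets. Where a gene is named, its value comes from the brightest of its probe sets on average, and 6873 of 12393 genes were tested in this form.

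The cells came from mice aged 6 to 8 weeks and had been enriched by negative selection to a purity above 95%, per the labels. Knockout cells carried ERRα-/- alleles, were stimulated for 12 h through CD3 and CD28 with 10 µg of antibody, and received no inhibitor. XCT790 cells were wild type at Esrra and received 20 µM XCT790, and the protocol places the inhibitor in the same 12 h stimulation, although the stimulation field of these 3 samples, and that of the 3 compound A samples, reads as unstimulated. The other arrays are 3 each of wild-type resting, wild-type stimulated, wild-type with 20 µM compound A (an ERRα inhibitor known only by its code name) and knockout resting cells, the resting cells being taken directly from the animal. XCT790 and the genotype differ at once between the compared groups, so each difference equals the effect of XCT790 in wild-type cells minus the effect of the knockout, both taken against the same stimulated wild-type arrays. The question was what the chemical does to these cells that loss of the receptor does not. The labels call the 3 samples of a group independent biological replicates, and the mouse strain, the sex and the targeted exon are not given in the sources used here.

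ERRα drives genes of mitochondrial energy metabolism together with the PGC-1 coactivators, and T cells raise that programme, along with glycolysis and growth, when they leave rest. XCT790 is an inverse agonist, a ligand that lowers the basal activity of the receptor, and it has also been described as an uncoupler of mitochondrial respiration. Stress on mitochondria or amino acid shortage is known to raise translation of ATF4, the transcription factor of the integrated stress response, and low oxygen stabilises the HIF factors, which raise glucose uptake, glycolysis and blood vessel growth signals.

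The signal of Esrra itself was 5.06, 5.08 and 5.14 on the XCT790 arrays and 4.33, 4.30 and 4.71 on the knockout arrays, in log2 units, the scale of all levels given here. The groups did not overlap, and the difference was 0.65 ± 0.11 (SE; limma adjusted p = 0.000177), which is 1.56-fold higher with XCT790. Stimulated wild-type cells read 5.37 ± 0.09 (SD, n = 3). The knockout arrays thus kept a signal above log2 4 from a probe set whose position relative to the deletion is not known here. Of the 6 CD4 T cell markers all were above log2 4 in both groups. Their mean was 11.41 to 11.47 over the XCT790 arrays and 11.80 to 11.96 over the knockout arrays. At a limma adjusted p under 0.05, Cd3g, Cd4, Cd3e and Cd2 were lower with XCT790 and 0 were higher. These 4 are 66.7% of the markers, against 33.8% of all genes tested that were lower. The 9 macrophage and the 7 erythroid markers averaged under log2 3 on all 6 arrays. Knockout array 1 stood apart in genes of neutrophils and other myeloid cells: the mean of the 9 neutrophil markers was 5.36 there against 2.69 and 2.89 on knockout arrays 2 and 3, and 2.45 to 3.00 with XCT790. In both groups arrays 2 and 3 were closer to each other than to array 1, with a SD of gene differences of 0.18 between knockout arrays 2 and 3 against 0.50 and 0.51 to array 1. The added bacterial dap RNA, whose 5' probe set split the series, was high in both groups, at 8.29 ± 0.19 and 7.79 ± 0.21 (SD, n = 3). The 3' and 5' beta-actin control probe sets read 14.57 and 13.83 with XCT790 and 15.08 and 14.64 in the knockout, while Gapdh read 14.25 and 14.18 at the 3' end. The part of these technical differences in the results was not tested.

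The 2 groups differed widely. Of 10691 probe sets 6906 passed a limma adjusted p under 0.05, 64.6% of those tested, with 3501 higher (32.7%) and 3405 lower (31.8%) with XCT790. Counted by gene, 4469 of 6873 passed (65%). Of all genes tested 2146 were higher (31.2%) and 2323 lower (33.8%), and the median difference over all genes was -0.01. At least 2-fold differences that passed the test were found for 606 genes that were higher (8.82%) and 738 that were lower (10.7%). In 4825 genes (70.2%) the 3 arrays of a group lay above all 3 of the other. The comparisons behind this difference were unequal in size: XCT790 against stimulated wild type gave 7124 probe sets (66.6%), and the stimulated knockout against stimulated wild type gave 497 (4.65%), or 316 without stimulated wild-type array 2 and 2702 with array weights. By gene, XCT790 raised 29% and lowered 36.9% against stimulated wild type, and the knockout raised 2.05% and lowered 0.902%. They share the stimulated wild-type arrays, so their values are only given side by side. Each list below is read against the 31.2% of all genes that were higher and the 33.8% that were lower. Some of the lists share members, whose calls are counted in each. Some counted genes reached the filter only because of a single compared group. By their brightest probe sets, Hspa1a, Trib3, Vegfa, Gpt2, Chac1 and Slc7a3 did so through the XCT790 arrays, so that only a rise could be called. Il3 and Il12rb2 did so through the knockout arrays, so that only a fall could be called.

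The 12 largest rises and the 12 largest falls were chosen among genes that passed and whose groups did not overlap. In order of the log2 difference the rises were Hspa1a, Trib3, Vegfa, Hspa1b, Abca1, Rell1, Ndrg1, Gpt2, Slc1a4, Arrb1, Bnip3 and Chac1, and the falls Cxcl9, Myo6, Crabp2, Usp18, Gzma, Pros1, Ubd, Lyz2, Ifitm3, Il17a, Igha and Ifng. Of the 12 largest rises, Hspa1a, Trib3, Vegfa, Abca1, Rell1, Gpt2 and Chac1 lay under log2 4 on all 3 knockout arrays, so that their fold is a lower bound against that floor. Of the 12 largest falls, Cxcl9, Myo6, Crabp2, Gzma, Pros1, Ubd, Lyz2 and Il17a lay under log2 4 on all 3 XCT790 arrays. Genes given further on as exceptions to their list, and Aars, Atp5g3, Atpif1, B2m, Cs and Irf4, were chosen after their values were seen.

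**Figure D1:**
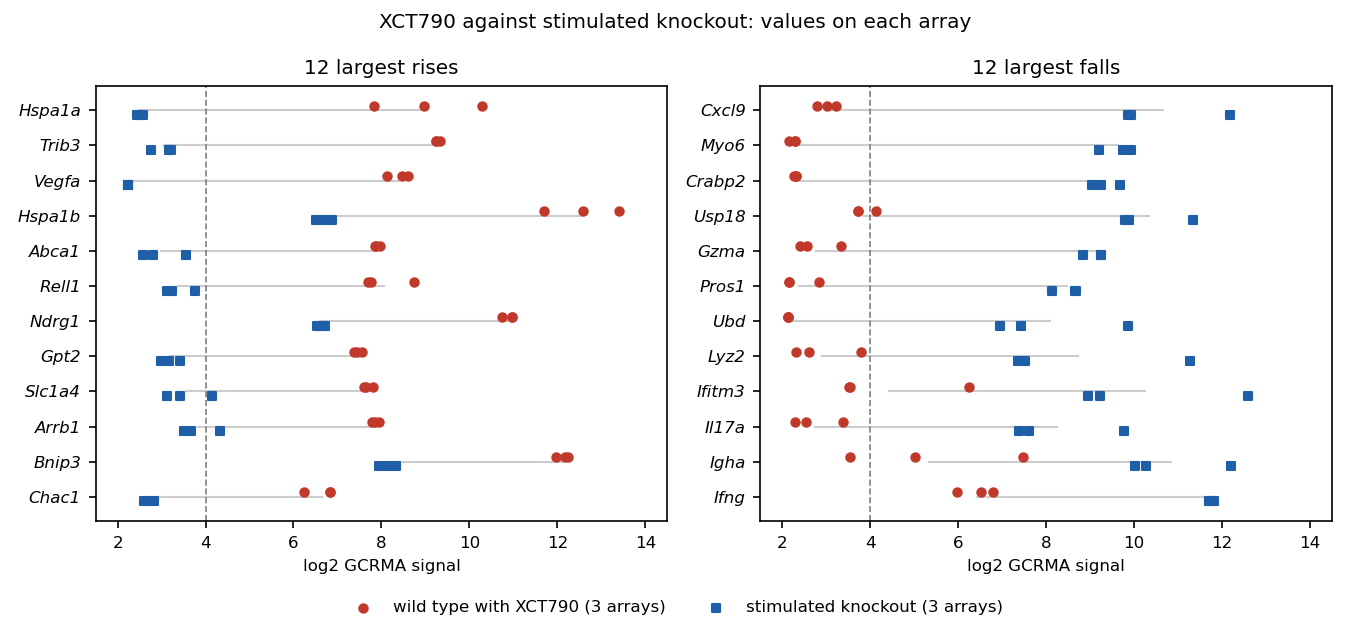
Log2 GCRMA signal (x axis) of the 12 genes with the largest rise and the 12 with the largest fall on each XCT790 array (red circles) and each stimulated knockout array (blue squares), with grey lines joining the group means and a dashed line at log2 4. Vegfa sits near 2.23 on all knockout arrays and at 8.13 or more with XCT790, and Myo6 sits at 9.20 or more in the knockout and at 2.29 or less with XCT790.

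Genes that HIF factors activate were mostly higher with XCT790. Of 19 tested members of this list, 14 were higher, 1 was lower and 4 did not pass, and the median difference was 2.09, against -0.01 over all genes. Vegfa, the main blood vessel growth factor, read 8.13, 8.61 and 8.46 with XCT790 and 2.23, 2.23 and 2.23 in the knockout. It was near the bottom of the scale on all knockout arrays and clearly measured on all XCT790 arrays, at least 21.2-fold higher (difference 6.17 ± 0.09, limma adjusted p = 6.27e-16). Stimulated wild-type cells read 2.23 ± 0.00 and compound A cells 2.29 ± 0.05 (SD, n = 3), so Vegfa was measured above log2 4 in the XCT790 group and in none of the other 5 groups. It passed the filter through the XCT790 arrays alone, so only a rise could be called. Ndrg1, a stress protein used as a marker of hypoxia, read 10.97, 10.73 and 10.96 against 6.59, 6.71 and 6.53. Its groups did not overlap, and it was 19.4-fold higher (adjusted p = 2.3e-13), as were its 4 other tested probe sets, with differences from 4.25 to 6.11. Bnip3, a mitophagy receptor of the outer mitochondrial membrane, read 11.97, 12.18 and 12.24 against 8.15, 8.33 and 7.94 and was 15.9-fold higher (adjusted p = 7.57e-08). The histone demethylase Kdm3a and the collagen prolyl hydroxylase P4ha1 were 4.9-fold and 5.67-fold higher, with differences of 2.29 ± 0.10 and 2.50 ± 0.11. Ddit4, an inhibitor of mTORC1, read 11.46, 11.29 and 11.52 against 9.43, 9.26 and 9.32 and was 4.26-fold higher. The exceptions were named after their values were seen: Hif1a itself (0.07 ± 0.12) and Ldha (-0.01 ± 0.09) did not pass, and Plin2, a lipid droplet protein, was the lower member (-0.95 ± 0.36), a call lost without either XCT790 array 2 or 3 or without knockout array 1. In stimulated knockout against stimulated wild-type cells 0 of the 19 passed in either direction (background 2.05% and 0.902% of genes), with a median of -0.0024.

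Glucose uptake and glycolysis genes were also higher in part. Of 20 tested genes 11 were higher and 5 lower, the lower count being 3 without XCT790 array 2 or without knockout array 1. Slc2a3, a high-affinity glucose transporter, read 12.46, 12.23 and 12.40 with XCT790 and 8.85, 8.56 and 8.80 in the knockout. All XCT790 arrays lay above all knockout arrays, and the gene was 12.3-fold higher (difference 3.62 ± 0.11, limma adjusted p = 7.47e-12). The main T cell glucose transporter Slc2a1 read 12.02, 11.80 and 12.08 against 10.01, 9.84 and 9.76 and was 4.28-fold higher, with 2.26 and 2.32 from its other tested probe sets. Slc16a3, which exports lactate, read 6.12, 5.96 and 6.06 against 2.68, 2.32 and 2.32, and Eno2, an enolase, 4.70, 5.67 and 5.32 against 2.13, 2.13 and 2.13. Both lay under log2 4 on all knockout arrays and above it on all XCT790 arrays. The members that were lower are mostly alternative forms or transporters (Eno3, Ldhb, Pfkm, Slc16a6 and Hk1), chosen here after their values were seen, and Eno3 had a difference of -2.46 ± 0.24. The pentose phosphate branch went the other way, with 6 of 9 tested genes lower and 0 higher (1 without XCT790 array 3): Pgd, its oxidative dehydrogenase, had a difference of -1.02 ± 0.15 and Prps2, which makes the ribose donor for nucleotides, of -1.56 ± 0.20. The other tested probe set of Prps2 differed by only -0.13.

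The integrated stress response was the list with the highest share of higher members among those with 9 or more tested genes. Of 31 tested ATF4-linked genes 27 were higher and 1 lower, with a median of 1.61 and 22 higher by at least 2-fold. Because these genes are known to share an ATF4 element, promoters were searched for TGATGNAA on both strands, in the RefSeq windows of 250 bases before to 50 after the start (GRCm38.p6). The element lay in 7 of the 24 list members with a promoter in the table (29.2%), in 149 of 5666 tested genes (2.63%), in 22 of 502 genes higher by at least 2-fold (4.38%) and in 16 of 590 lower by as much (2.71%). Of all 32851 promoters of that length 3.97% held it. A match is a description of letters and not of binding. The stretches around the element in 4 members that passed the test are shown to let the shared letters be seen, with the element in capitals (TTGCATCA is a match on the other strand).
Chac1: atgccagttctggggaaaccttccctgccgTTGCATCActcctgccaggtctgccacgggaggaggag
Herpud1: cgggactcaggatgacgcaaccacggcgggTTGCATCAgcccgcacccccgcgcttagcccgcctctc
Asns: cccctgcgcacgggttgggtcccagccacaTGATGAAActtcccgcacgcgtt
Aars: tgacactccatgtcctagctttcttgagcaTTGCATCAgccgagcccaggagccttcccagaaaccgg
The Chac1 stretch is chr2:119351019-119351086, plus strand, with the element 193 to 186 bases before the start. The Herpud1 stretch is chr8:94386287-94386354, plus strand, 112 to 105 bases before the start. The Asns stretch is chr6:7693210-7693262, minus strand, 23 to 16 bases before it, and the Aars stretch is chr8:111033700-111033767, plus strand, 112 to 105 bases before it.

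Trib3, a pseudokinase that feeds back on ATF4, read 9.24, 9.34 and 9.25 with XCT790 and 2.77, 3.16 and 3.21 in the knockout. The XCT790 arrays agreed within 0.10, all knockout arrays were under log2 4, and Trib3 was at least 38.8-fold higher (difference 6.23 ± 0.34, limma adjusted p = 5.57e-09). Chac1, which degrades glutathione and carries the element shown above, read 6.24, 6.84 and 6.84 against 2.69, 2.60 and 2.82 and was at least 6.23-fold higher. Ddit3, the stress factor CHOP, read 11.42, 10.26 and 10.52 against 7.91, 7.55 and 7.54 and was 8.37-fold higher (adjusted p = 1.21e-07). Array 1 was the highest XCT790 array for Ddit3, and all XCT790 arrays lay above all knockout arrays. Sesn2, a leucine sensor that restrains mTORC1, was 5.05-fold higher (2.34 ± 0.11). Asns, asparagine synthetase, read 8.78, 8.40 and 7.92 against 7.71, 6.31 and 6.25 with a difference of 1.61 ± 0.53 (adjusted p = 0.0157), and this call was lost without XCT790 array 1 (adjusted p = 0.0606) or without knockout array 2 or 3 (adjusted p = 0.0606 and 0.0641). Atf3, a stress-induced factor of the same family, did not pass (9.79, 8.88 and 8.93 against 9.08, 8.72 and 8.73). Atf4 itself, named after its value was seen, was higher by 1.12 ± 0.09. The lower member was Wars, tryptophanyl-tRNA synthetase, which is also known as an interferon gamma target, at 8.54, 8.77 and 8.77 against 10.22, 10.31 and 10.23. In stimulated knockout against stimulated wild-type cells 1 of the 31 was higher (Cebpb, 0.85 ± 0.23) and 0 were lower.

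The amino acid supply genes tied to this response were mixed by their own lists. These lists share members with the ATF4-linked list, among them Slc3a2, Slc7a3, Slc7a5, Slc38a2, Aars, Wars and Mthfd2, whose calls are therefore counted in both places. Of 11 amino acid transporters and transaminases tested, 6 were higher and 3 lower. Slc1a4, a neutral amino acid carrier, read 7.81, 7.64 and 7.60 against 3.12, 3.42 and 4.14 and was 12.4-fold higher. Gpt2, the mitochondrial alanine transaminase, read 7.37, 7.56 and 7.45 against 2.98, 3.43 and 3.17 and was at least 11-fold higher. Slc7a3, a cationic amino acid carrier, and Slc38a2, a neutral one, had differences of 3.20 ± 0.18 and 1.59 ± 0.10. Slc3a2 and Slc7a5, which form the leucine transporter and are also activation markers, were 4.15-fold and 2.01-fold higher. Of 18 aminoacyl-tRNA synthetases all passed, 10 higher and 8 lower: Aars had a difference of 1.38 ± 0.16, and Rars and Kars of -0.86 ± 0.08 and -0.97 ± 0.10. Within serine and one-carbon metabolism 3 of 9 were higher and 4 lower, the higher count being 5 without XCT790 array 1. Mitochondrial Mthfd2 was higher by 1.47 ± 0.19 and cytosolic Mthfd1 lower (-1.13 ± 0.24).

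The inducible HSP70 genes had rises among the largest, while the list of cytosolic heat shock genes that holds them was called higher at the share of all genes. Hspa1a and Hspa1b encode near-identical inducible HSP70 proteins, and their probe sets may share transcripts. Hspa1a read 10.28, 7.83 and 8.97 with XCT790 and 2.57, 2.49 and 2.44 in the knockout, and Hspa1b 13.41, 11.70 and 12.59 against 6.87, 6.68 and 6.52. The XCT790 arrays were spread over more than 1.7 log2 units in both genes, with array 1 highest and array 2 lowest, yet all lay above the knockout arrays (at least 32.6-fold and 58.7-fold higher, limma adjusted p = 5.55e-06 and 3.09e-06). Compound A cells had intermediate levels of 5.73 ± 2.26 and 9.24 ± 1.79 (SD, n = 3). Of 16 cytosolic heat shock genes 5 were higher (31.2% of the list, equal to the share of all genes), 3 lower and 8 did not pass. Hspa4l, an HSP110 relative, had a difference of 1.90 ± 0.30 and Dnajb4, a cochaperone, of 1.08 ± 0.12. Endoplasmic reticulum chaperones leaned the other way, with 5 of 26 higher and 13 lower and a median of -0.12. Hspa5 (BiP), the main chaperone there, read 13.67, 13.46 and 13.50 against 13.79, 13.41 and 13.45 and did not pass (difference -0.00 ± 0.09). Herpud1, which also carries the ATF4 element, was higher by 2.08 ± 0.14, and Sdf2l1, an ER chaperone partner, was lower (-1.67 ± 0.18). Of 14 mitochondrial chaperones and proteases 6 were higher and 6 lower, with Lonp1, the matrix protease, at 1.52 ± 0.16 and Clpp, another, at -0.80 ± 0.06.

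**Figure D2:**
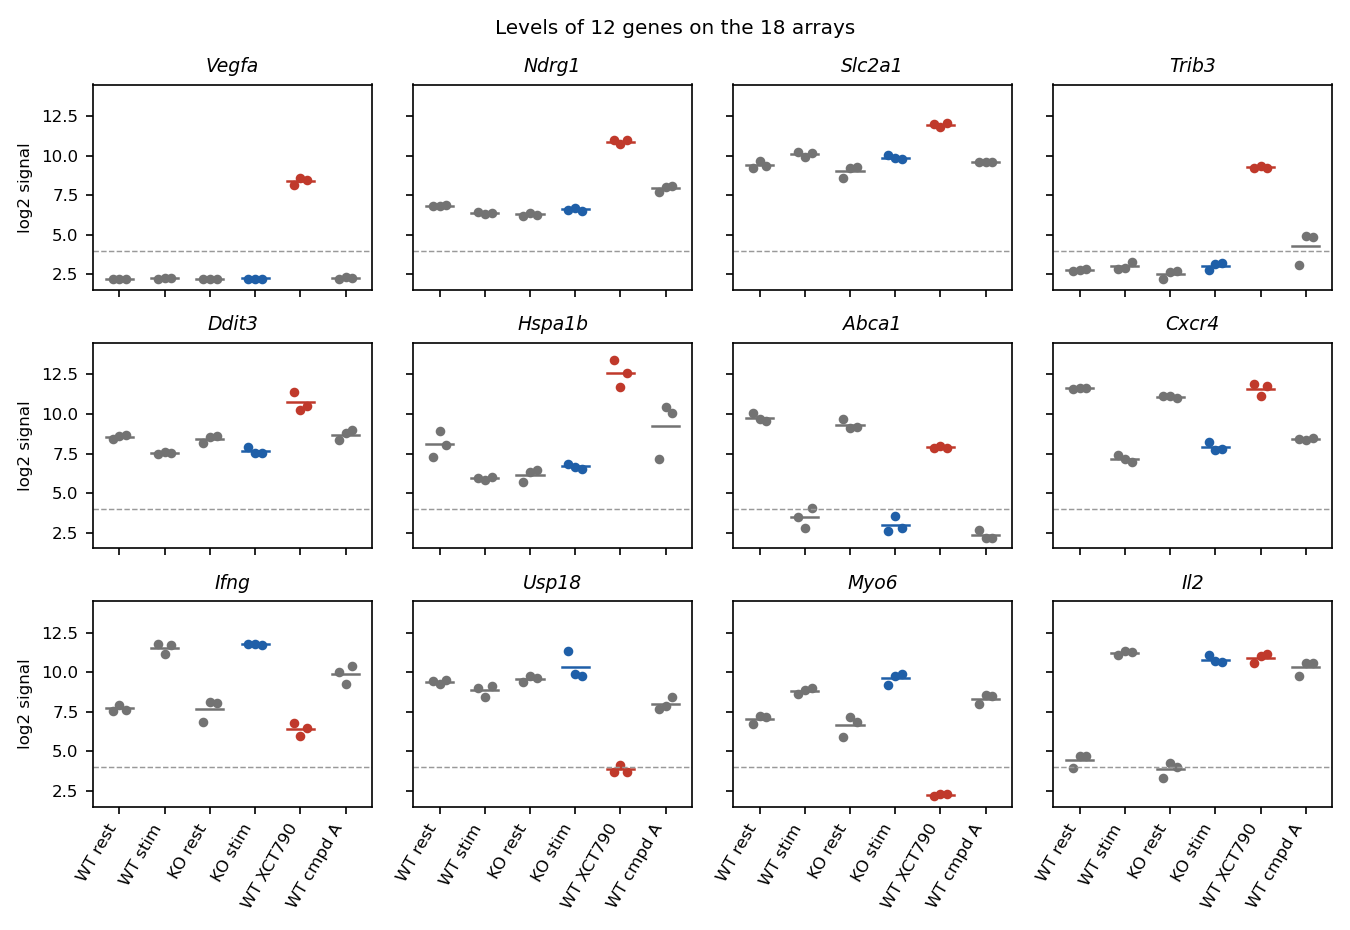
Log2 signal (y axis) of 12 genes on the 18 arrays, in 6 groups of 3 (WT, wild type; KO, ERRα knockout; rest, resting; stim, stimulated; cmpd A, compound A), with points for arrays and lines for group means. XCT790 is red, the stimulated knockout blue, and the dashed line is log2 4. Vegfa is above log2 4 with XCT790 alone, Usp18 and Myo6 are at their lowest there, and the means of Il2 lie between 10.32 and 11.25 in the 4 groups other than the resting ones.

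Genes of oxidative metabolism, the known targets of ERRα, were lower with XCT790 than in cells without the receptor. In complex I, the NADH dehydrogenase, 29 of 33 tested subunits were lower and 1 higher, with a median of -0.69. In the ATP synthase and nucleotide carrier list 17 of 18 were lower and 0 higher (median -0.60), and among complexes III and IV and cytochrome c 19 of 24 were lower and 2 higher (median -0.54). Of 26 genes of pyruvate entry and the tricarboxylic acid cycle 19 were lower and 1 higher (median -0.45), and of 24 genes of fatty acid oxidation and ketone use 16 were lower and 2 higher (median -0.63). The shares of lower members lay between 66.7% and 94.4%, against 33.8% of all genes. The single differences were mostly under 2-fold. In the stimulated knockout against stimulated wild type, the medians of these 5 lists lay between -0.11 and -0.07, near the all-gene median of -0.06, and in that comparison 1 gene of the ATP synthase list (Atp5o) and 1 of pyruvate entry (Dlat) were lower and 2 of fatty acid oxidation (Cpt1a and Eci2) were higher. With XCT790 against stimulated wild type the medians were -0.81 for complex I and -0.69 for the ATP synthase list.

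Ndufa5, a complex I subunit, read 9.66, 9.86 and 9.64 with XCT790 and 10.80, 10.90 and 11.03 in the knockout. The groups lay about 1 log2 unit apart without overlap, and Ndufa5 was 2.28-fold lower (difference -1.19 ± 0.08, limma adjusted p = 2.78e-08). Ndufb2 and Ndufs5 were 2.07-fold and 2.18-fold lower. Uqcr11, a small subunit of complex III, read 9.82, 9.98 and 9.86 against 11.20, 11.28 and 11.34 and was 2.61-fold lower. Cox5b, a complex IV subunit, read 12.90, 12.98 and 12.88 against 13.73, 13.75 and 13.72 and was 1.76-fold lower, with -0.83 to -1.04 from its 3 other tested probe sets. Cycs, cytochrome c, did not pass by its highest probe set (12.89, 12.66 and 12.74 against 13.12, 12.84 and 12.79, difference -0.15 ± 0.10), but its other 2 tested probe sets differed by -0.66 and -0.64, and the mean of its probe sets passed (-0.48, limma adjusted p = 0.000344). The exceptions in the other direction, named after their values were seen, were Ndufa6 (0.40 ± 0.10), Cox7c and Cox7a2l, an assembly factor of respiratory supercomplexes (1.27 ± 0.15).

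The ERR element AAGGTCA was found in 5 of the 17 promoters of the ATP synthase list (29.4%), against 212 of 5666 tested genes (3.74%), 29 of 590 genes lower by at least 2-fold (4.92%) and 22 of 502 higher by as much (4.38%), and 4.72% of all 32851 promoters. Both strands were searched in the RefSeq windows of 300 bases (GRCm38.p6), and AAGGTCA contains the AGGTCA core that many nuclear receptors share. Complex I held it in 2 of 30 promoters (6.67%), those of Ndufb2 and Ndufs5. The stretches of 3 members that were lower with XCT790 are shown because they carry the letters ERRα is known to bind, with the element in capitals (TGACCTT is AAGGTCA read on the other strand).
Atp5l: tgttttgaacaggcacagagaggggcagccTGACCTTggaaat
Atp5g3: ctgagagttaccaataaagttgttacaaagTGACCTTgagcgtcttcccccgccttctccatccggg
Atpif1: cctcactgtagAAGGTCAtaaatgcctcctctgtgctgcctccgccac
The Atp5l stretch is chr9:44920743-44920785, minus strand, with the element 13 to 7 bases before the start. The Atp5g3 stretch is chr2:73911342-73911408, minus strand, 52 to 46 bases before it, and the Atpif1 stretch is chr4:132535617-132535664, minus strand, 239 to 233 bases before it. Atp5l, subunit g of the enzyme, read 11.76, 11.83 and 11.77 with XCT790 and 12.51, 12.50 and 12.55 in the knockout, without overlap (1.66-fold lower, limma adjusted p = 1.32e-07). Its level in stimulated wild-type cells was 12.56 ± 0.02 (SD, n = 3), close to that of the knockout. Atpif1, the inhibitor of the reversed ATP synthase, read 8.32, 8.49 and 7.97 against 10.15, 9.42 and 9.46, a difference of -1.41 ± 0.24, and Atp5g3, a subunit of the membrane ring, differed by -0.56 ± 0.07. Atp5k and Atp5e, both small subunits, differed by -0.89 ± 0.07 and -0.73 ± 0.06.

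Among enzymes, Eci1, which prepares unsaturated fatty acids for oxidation, read 6.62, 7.38 and 7.14 with XCT790 and 9.08, 9.36 and 9.38 in the knockout. It was 4.69-fold lower (difference -2.23 ± 0.15, limma adjusted p = 2.78e-08), with no overlap between groups. Hadh and Acaa2, later enzymes of beta-oxidation, were 4.15-fold and 3.04-fold lower, and Oxct1, which activates ketone bodies, was 2.77-fold lower. The other tested probe sets of Hadh differed by -0.40 and -2.16. Acadm, the medium-chain dehydrogenase and a well known ERRα target, read 9.56, 10.23 and 9.98 against 10.59, 10.32 and 10.47 and was 1.45-fold lower (adjusted p = 0.00174). Cpt1a, which admits fatty acids to mitochondria, went against its list at 6.57, 6.68 and 6.83 against 6.17, 5.68 and 5.77, a difference of 0.82 ± 0.29 (adjusted p = 0.0214). That call was lost without XCT790 array 3 and without knockout array 2 or 3 (adjusted p from 0.0593 to 0.0719), and Cpt1a also differed between stimulated knockout and stimulated wild type (1.15 ± 0.29, adjusted p = 0.033). The other tested probe set of Cpt1a differed by 0.39 between XCT790 and the knockout and did not pass. The higher count of this list fell from 2 to 1 or 0 without any of the arrays left out. In the tricarboxylic acid cycle Suclg1, of succinyl-CoA ligase, was 2.43-fold lower. Sdhb, Sdhc and Sdhd, 3 subunits of complex II, were 1.63-fold, 1.87-fold and 1.94-fold lower. The other tested probe sets of Sdhc and Sdhd differed by only -0.49 and -0.36. The higher member was Pdk1 (1.52 ± 0.20), a kinase that shuts pyruvate dehydrogenase and is counted among the HIF targets too. Citrate synthase, Cs, did not pass (-0.05 ± 0.08).

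Mitochondrial ribosomal proteins formed the largest list, and 60 of 67 were lower and 0 higher, with a median of -0.81 and 22 lower by at least 2-fold. Mrpl4 read 8.26, 8.30 and 8.11 with XCT790 and 9.56, 9.67 and 9.66 in the knockout. It was 2.65-fold lower with no overlap (limma adjusted p = 8.96e-09). Mrpl42 and Mrpl17 were 2.61-fold and 2.2-fold lower. The factors that run mitochondrial biogenesis did not follow: 11 of 18 were higher and 5 lower, the lower count being 2 without XCT790 array 1. Gabpa, a subunit of the ETS factor GABP that drives respiratory genes, was higher by 0.87 ± 0.08, Yy1, another factor at such promoters, by 0.74 ± 0.07, and Pprc1, a PGC-1 relative, by 0.82 ± 0.13. Ppargc1b, the PGC-1β coactivator, was lower (-0.78 ± 0.28) and Tfam, which packs mitochondrial DNA, did not pass (0.00 ± 0.10), both named after their values were seen.

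**Figure D3:**
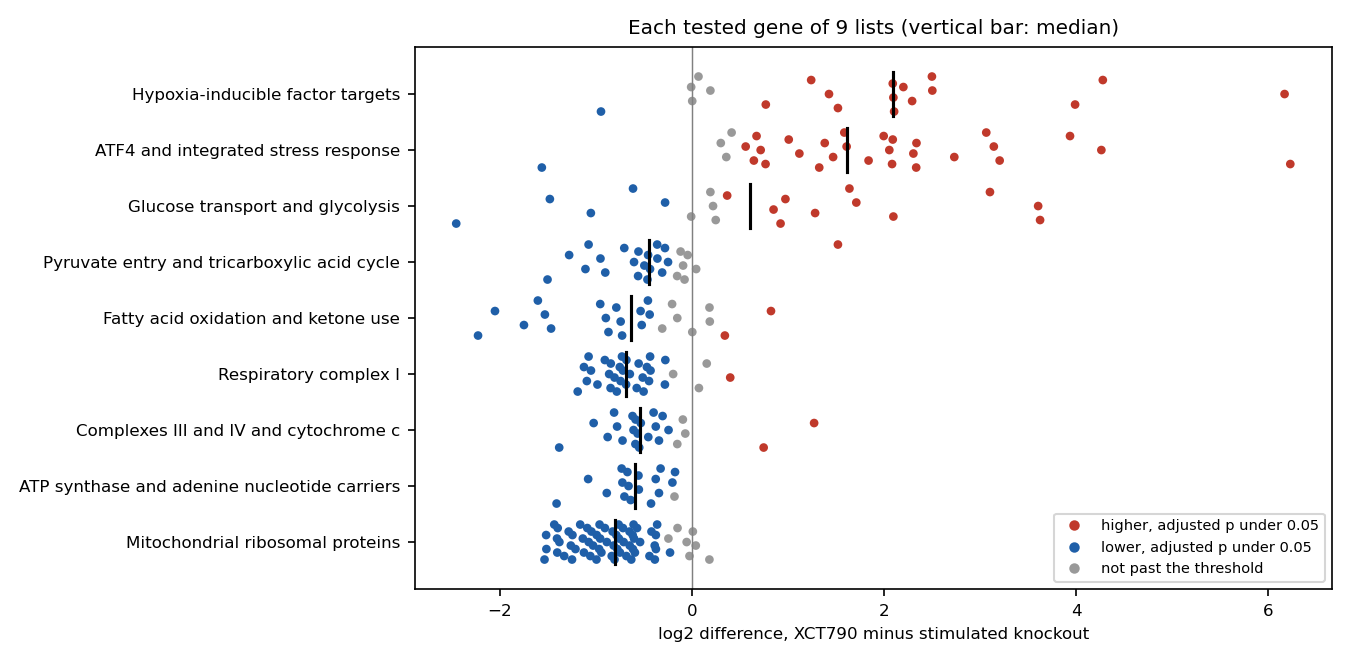
Log2 difference between XCT790 and the stimulated knockout (x axis) of each tested gene in 9 lists, with red and blue points for genes higher or lower at a limma adjusted p under 0.05, grey points for others and black bars for list medians. The medians run from 2.09 for HIF targets to -0.81 for mitochondrial ribosomal proteins, and the mitochondrial lists sit close together left of 0.

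Cholesterol synthesis was lower and LXR targets were partly higher. Of 20 tested genes of cholesterol synthesis and uptake 16 were lower and 0 higher, with a median of -1.12, and 1 became higher without XCT790 array 1 or knockout array 1. Pmvk, a mevalonate pathway kinase, read 4.92, 5.73 and 5.51 with XCT790 and 7.86, 7.79 and 7.78 in the knockout. It was 5.36-fold lower without overlap (limma adjusted p = 5.09e-08). Fdps, which makes farnesyl diphosphate, read 8.30, 9.07 and 8.78 against 10.48, 10.34 and 10.29 and was 3.15-fold lower, and the later enzymes Nsdhl and Ebp were 2.69-fold and 1.83-fold lower. Srebf1, which encodes the SREBP-1 factor of fatty acid synthesis, was higher by 0.89 ± 0.09. Abca1, the cholesterol exporter and a classic LXR target, read 7.86, 7.96 and 7.87 against 2.58, 3.56 and 2.80 and was at least 14.9-fold higher (adjusted p = 1.07e-08). Resting wild-type cells had 9.75 ± 0.28 and stimulated wild-type cells 3.46 ± 0.61 (SD, n = 3), so the XCT790 level lay between the resting and the stimulated level. Mylip, an LXR target that removes the LDL receptor, was higher by 1.49 ± 0.15. Over the 16 genes of this list 9 were higher and 5 lower, and the lower ones, named after their values were seen, included the fatty acid synthesis enzymes Fasn (-0.45 ± 0.12) and Acly (-0.41 ± 0.08).

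Interferon-stimulated genes were lower with XCT790 in 16 of 19 cases and higher in 0, with a median of -2.44. Usp18, an interferon-induced protease that dampens the interferon receptor, read 3.72, 4.13 and 3.72 with XCT790 and 11.35, 9.88 and 9.80 in the knockout. All 3 XCT790 arrays were at or near log2 4 and knockout array 1 was the highest, and Usp18 was 78.8-fold lower (difference -6.48 ± 0.33, limma adjusted p = 2.59e-09). Without knockout array 1 the difference was -5.98. Usp18 also was higher in stimulated knockout than in stimulated wild-type cells (1.48 ± 0.33, adjusted p = 0.0164), and against stimulated wild type the XCT790 difference was -5.01 ± 0.33. Over the list the median was -1.56 for XCT790 and 1.09 for the knockout, each against stimulated wild type, where 15 were lower and 1 (Usp18) was higher respectively. Parp9 and Trim30a, other interferon-induced genes, differed by -1.70 ± 0.16 and -2.14 ± 0.22. Between 15 and 18 of the 19 were lower when any of the 6 arrays was left out. Of 18 genes of the interferon gamma response and antigen processing 15 were lower and 0 higher. Irgm1, a GTPase of cell-autonomous immunity, read 9.50, 10.04 and 10.06 against 12.25, 12.28 and 12.18 and was 5.17-fold lower. Iigp1 and Gbp6, other such GTPases, were 8.45-fold and 4.3-fold lower, and Psmb8, of the immunoproteasome, was 2.71-fold lower. B2m, the light chain of class I molecules, did not pass (-0.02 ± 0.06). Cxcl9, a chemokine that interferon gamma induces, read 3.02, 2.80 and 3.22 against 12.18, 9.92 and 9.87 and was at least 101-fold lower (difference -7.64 ± 0.53, adjusted p = 3.74e-08). Its log2 difference was the largest of the 12 falls, but without knockout array 1 it was -6.88, smaller than that of Myo6 (-7.59). Ubd, an interferon-induced ubiquitin-like protein, read 2.13, 2.13 and 2.13 against 9.86, 7.42 and 6.96, with array 1 again the highest of the knockout, and its difference was -5.06 without that array.

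Cytokine genes were lower, with Il2 as an exception. Of 25 tested cytokines and chemokines 17 were lower, 3 higher and 5 did not pass, the higher count being 1 without XCT790 array 1 or 3. The higher ones were Ltb, Tnfsf11 and Ccl5. The median was -2.91, or -2.35 with values under log2 4 set to that floor. Ifng, the interferon of Th1 cells, read 6.80, 5.97 and 6.51 with XCT790 and 11.82, 11.80 and 11.70 in the knockout. It was 40.7-fold lower without overlap (difference -5.35 ± 0.34, limma adjusted p = 1.68e-08), and lower than in resting wild-type cells, which read 7.72 ± 0.21 (SD, n = 3, not tested). Il17a, the Th17 cytokine, read 2.29, 2.54 and 3.39 against 9.76, 7.62 and 7.39, with knockout array 1 the highest. It was at least 19.1-fold lower and its difference without knockout array 1 was -4.76, while stimulated knockout cells exceeded stimulated wild-type cells by 2.89 ± 0.54 (adjusted p = 0.00452). Ccl1 and Il3, products of activated T cells, were 10.1-fold and at least 1.83-fold lower. Il2, the T cell growth factor, read 10.60, 11.05 and 11.15 against 11.09, 10.69 and 10.65. The ranges overlapped and the difference was 0.12 ± 0.28 (adjusted p = 0.728). It became 0.44 with array weights and 0.43 with arrays 2 and 3 alone, both past the threshold. Tnf and Lta, named after their values were seen, did not pass either (0.49 ± 0.52 and -0.34 ± 0.28).

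Cytokine receptors were mostly lower, and lineage factors of T helper cells differed in both directions. Of 19 cytokine receptors and their inhibitors 11 were lower and 1 higher (Ifngr1). The higher count was 2 without XCT790 array 1 or 2 or knockout array 2. Il12rb2, counted among the lower ones, passed the filter through the knockout arrays alone, so only a fall could be called. Il12rb1, a chain of the IL-12 and IL-23 receptors, read 4.07, 4.07 and 4.10 with XCT790 and 8.72, 8.43 and 8.40 in the knockout and was 21.7-fold lower (limma adjusted p = 4.04e-07). Socs3, an inhibitor of cytokine signals, and Il21r, the IL-21 receptor, were 7.09-fold and 3.92-fold lower. Tbx21, the T-bet factor of Th1 cells, read 7.51 ± 0.42 with XCT790 and 10.88 ± 0.22 in the knockout (SD, n = 3). The groups were more than 2 log2 units apart, and Tbx21 was 10.3-fold lower. Eomes, its relative in cytotoxic and NK cells, read 5.17, 6.65 and 6.80 against 9.72, 9.94 and 9.84, and Gata3, the Th2 factor, 8.22, 8.29 and 8.32 against 9.54, 9.95 and 9.83 (12.3-fold and 2.82-fold lower). Rora, a nuclear receptor used by Th17 cells, went the other way at 9.04, 8.57 and 8.71 against 5.35, 5.38 and 6.06, 9.05-fold higher (adjusted p = 4.24e-08). Of the 14 lineage regulators 5 were higher (35.7%) and 4 lower (28.6%), near the shares of all genes, with a median of 0.31. Lag3, an inhibitory receptor, read 3.42, 6.60 and 5.59 against 10.17, 9.68 and 9.71 and was 21.9-fold lower, and Ctla4, another, was 1.84-fold higher.

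Gzma, a granzyme of cytotoxic lymphocytes, read 3.34, 2.40 and 2.56 with XCT790 and 8.83, 9.25 and 9.25 in the knockout and was at least 34.6-fold lower (limma adjusted p = 1.03e-09). Gzma is among the 5 NK markers, whose mean was 4.27 to 4.41 with XCT790 and 6.40 to 6.72 in the knockout. Of the 4 tested NK markers 3 were lower, while Klrd1, a defining NK receptor, did not pass with all arrays (0.01 ± 0.33). In bulk RNA, fewer cells of a type and less of its RNA per cell cannot be told apart. Lyz2, a lysozyme of myeloid cells whose near-identical copy Lyz1 can share its probes, read 3.78, 2.31 and 2.60 against 11.28, 7.36 and 7.53. Array 1 was highest in both groups, and the difference of -5.83 ± 1.17 was -4.55 without knockout array 1 (adjusted p = 0.0028). Ifitm3, an antiviral membrane protein of many cell types, read 6.25, 3.51 and 3.53 against 12.58, 9.22 and 8.95 and Igha, the immunoglobulin A heavy chain of plasma cells, 7.47, 3.55 and 5.02 against 12.21, 10.28 and 10.03. Their differences without knockout array 1 were -4.66 and -4.81. The 8 tested neutrophil markers gave 0 calls: S100a8, a neutrophil calcium-binding protein, read 6.40, 4.10 and 4.10 against 10.06, 5.50 and 5.95 (adjusted p = 0.077), and with the array number as a block its difference passed (adjusted p = 0.00497), as did that of S100a9, its partner (-2.17, adjusted p = 0.0459), and of the plasma cell marker Jchain (-0.94, adjusted p = 0.0408). Both plasma cell markers together averaged 5.45 to 6.39 with XCT790 and 5.99 to 7.07 in the knockout. The part of neutrophil and plasma cell RNA in these falls was not tested.

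The activation programme was present with XCT790 but smaller. The activation score is the mean of 292 genes that stimulation of wild-type cells raised by 4-fold or more minus the mean of 503 that fell as much. It was 1.74, 2.07 and 2.04 on the XCT790 arrays and 2.85, 3.09 and 3.07 on the knockout arrays. The XCT790 arrays lay below the knockout arrays and far above the resting arrays, whose means were -2.90 ± 0.09 in wild-type and -2.96 ± 0.02 in knockout cells (SD, n = 3). Stimulated wild-type cells scored 3.33 ± 0.03 and compound A cells 2.31 ± 0.06. The arrays that set the genes of the score are none of the 6 compared here. The 2 sides of the score behaved differently. Of the 292 induced genes 181 were lower with XCT790 (62% against 33.8% of all genes) and 30 higher, with a median of -0.76. Of the 503 repressed genes 152 were higher (30.2%) and 107 lower (21.3%), with a median of 0.00.

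**Figure D4:**
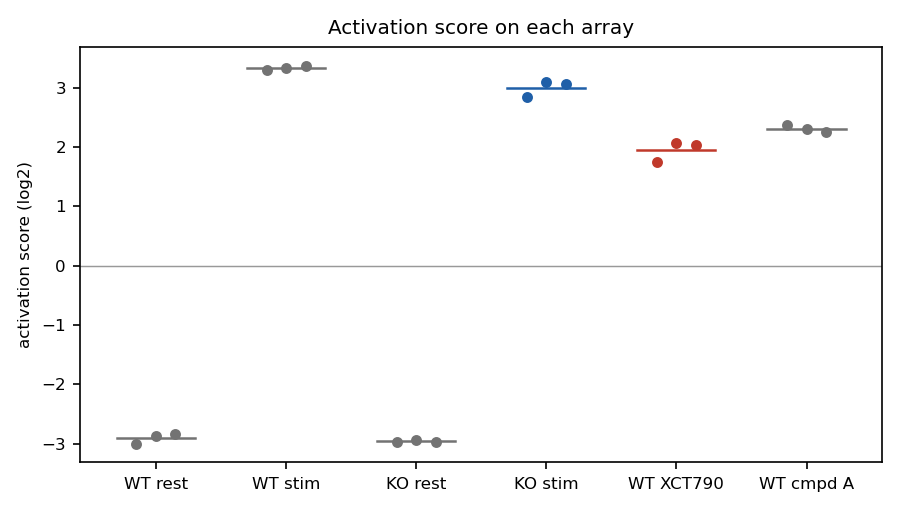
Activation score in log2 units (y axis) of each of the 18 arrays by group, with points for arrays and lines for means (XCT790 red, stimulated knockout blue). The XCT790 arrays lie from 1.74 to 2.07, below the knockout arrays at 2.85 to 3.09 and above both resting groups near -2.9.

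By single genes, activation markers were called at near the shares of all genes. Of 18 tested 5 were higher and 5 lower (27.8% each, against 31.2% and 33.8% of all genes). The lower count was 3 without XCT790 array 1. Myc, the growth regulator, read 11.09, 10.98 and 10.98 with XCT790 and 12.20, 11.98 and 11.96 in the knockout and was 2.05-fold lower (limma adjusted p = 1e-06). Il2ra, the high-affinity IL-2 receptor chain, read 9.70, 10.71 and 10.62 against 10.85, 10.96 and 10.96, where XCT790 array 1 was the lowest. Its difference of -0.58 ± 0.23 (adjusted p = 0.0378) became -0.26 (adjusted p = 0.23) without that array, and it also missed the threshold without any of the 3 knockout arrays (adjusted p from 0.0575 to 0.0839). Il2rb, the signalling chain of the same receptor, was 2.98-fold lower. Irf4, a factor tied to the strength of the T cell receptor signal and named after its value was seen, read 13.56, 13.54 and 13.64 against 12.79, 13.02 and 13.03 and did not pass (adjusted p = 0.0591). Of 19 genes of the T cell receptor complex and its signalling 6 were higher (31.6%) and 8 lower (42.1%). Cd3g and Cd247, chains of the complex, differed by -1.02 ± 0.12 and -1.09 ± 0.14. The other tested probe sets of Cd247 differed by -0.06 and -1.15. Of 20 immediate early genes 4 were higher and 4 lower (20% each, under the shares of all genes). Maff, a small Maf factor, was 8.15-fold higher and Batf, an AP-1 partner of Irf4, 3.38-fold lower. Among NF-κB feedback genes 9 of 14 were higher and 2 (Bcl3 and Icam1) lower: Tnfaip3 (A20), an inhibitor of the pathway, read 7.56, 6.93 and 6.79 against 4.38, 4.43 and 4.48 and was 6.33-fold higher, and Bcl3, a nuclear IκB, was 6.19-fold lower.

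Genes of quiescent T cells were higher in 11 of 19 cases and lower in 1 (Slfn2). Tob1, an antiproliferative protein, read 10.20, 9.96 and 9.84 with XCT790 and 8.30, 8.37 and 8.40 in the knockout and was 3.12-fold higher (limma adjusted p = 2.84e-07). Foxo3, a factor of rest and survival, was higher by 1.15 ± 0.11, Btg1 by 0.88 ± 0.07 and Tsc22d3, the glucocorticoid-induced GILZ, by 1.60 ± 0.19. The other tested probe sets of Tsc22d3 differed by 1.88 and 0.06. Cxcr4, the chemokine receptor for CXCL12, read 11.88, 11.14 and 11.76 against 8.22, 7.71 and 7.80. It was 12.8-fold higher (adjusted p = 9.06e-10) and close to the level of resting wild-type cells, 11.62 ± 0.03 (SD, n = 3). Cdkn1b (p27), which holds cells out of division, read 11.35, 11.05 and 11.29 against 9.26, 9.16 and 9.22 and was 4.04-fold higher, again near the resting level of 11.42 ± 0.10. Of 14 genes of AMPK, mTOR and growth control 10 were higher and 0 lower, the lower count being 1 without XCT790 array 3 or knockout array 1. Among the higher ones Sesn2, Ddit4 and Eif4ebp1 are also counted in the ATF4-linked list, and Ddit4 among the HIF targets too. Tsc1, a brake on mTORC1, differed by 1.49 ± 0.11. Flcn and Ulk1, of lysosomal nutrient sensing and autophagy start, were higher by 2.22 ± 0.16 and 1.28 ± 0.12. Their list of 26 had 10 higher and 9 lower (38.5% and 34.6%, near the shares of all genes). Of 19 tested genes of the BCL2 family and caspases 6 were higher and 5 lower (31.6% and 26.3%, near the shares of all genes). The proapoptotic Bcl2l11 (BIM) and Bbc3 (PUMA) were 3.74-fold and 4.15-fold higher, and the proapoptotic Bid and Bak1, named after their values were seen, were lower (-0.65 ± 0.13 and -1.03 ± 0.10).

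Replication and biosynthesis were lower. In the G1 and S phase list 27 of 31 were lower and 3 higher (Rb1, Rbl1 and Ccne2), the higher count being 1 without XCT790 array 2 or 3, with a median of -1.29. Mcm2, of the replicative helicase, read 8.49, 8.67 and 8.75 with XCT790 and 10.93, 10.84 and 10.82 in the knockout and was 4.69-fold lower without overlap (limma adjusted p = 5.87e-08). Gins1, its partner, read 4.23 ± 0.21 against 7.95 ± 0.22 (SD, n = 3) and was 13.2-fold lower, and Cdk4, which starts the passage through G1, was 2.26-fold lower. Of 23 mitosis genes 12 were lower and 1 higher (Cenpa). Without knockout array 1 the lower count was 7, and without XCT790 array 1 or knockout array 2 or 3 the higher count was 0. Top2a, a topoisomerase of dividing cells, read 6.55, 5.37 and 5.37 against 9.71, 8.29 and 8.19. Of 21 genes of purine and pyrimidine synthesis 14 were lower and 1, Hprt, higher. The higher count was 0 without XCT790 array 2 or 3 or knockout array 1 or 3. Rrm1, Rrm2 and Tk1, which were lower, are also counted in the G1 and S phase list. Dut, which clears dUTP, differed by -2.11 ± 0.22 and Adsl, of purine synthesis, by -0.97 ± 0.11. Of 42 ribosome biogenesis genes 28 were lower and 1, Polr1c, higher, with Noc4l and Nhp2, nucleolar proteins, at -1.58 ± 0.17 and -1.14 ± 0.12. All 35 proteasome genes listed were tested, and 31 were lower and 0 higher, or 1 higher without XCT790 array 1. Pomp, the assembly chaperone of the proteasome, read 11.04, 11.31 and 11.05 against 12.63, 12.59 and 12.63 and was 2.79-fold lower, and Psmb5, a catalytic subunit, was 1.86-fold lower.

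**Figure D5:**
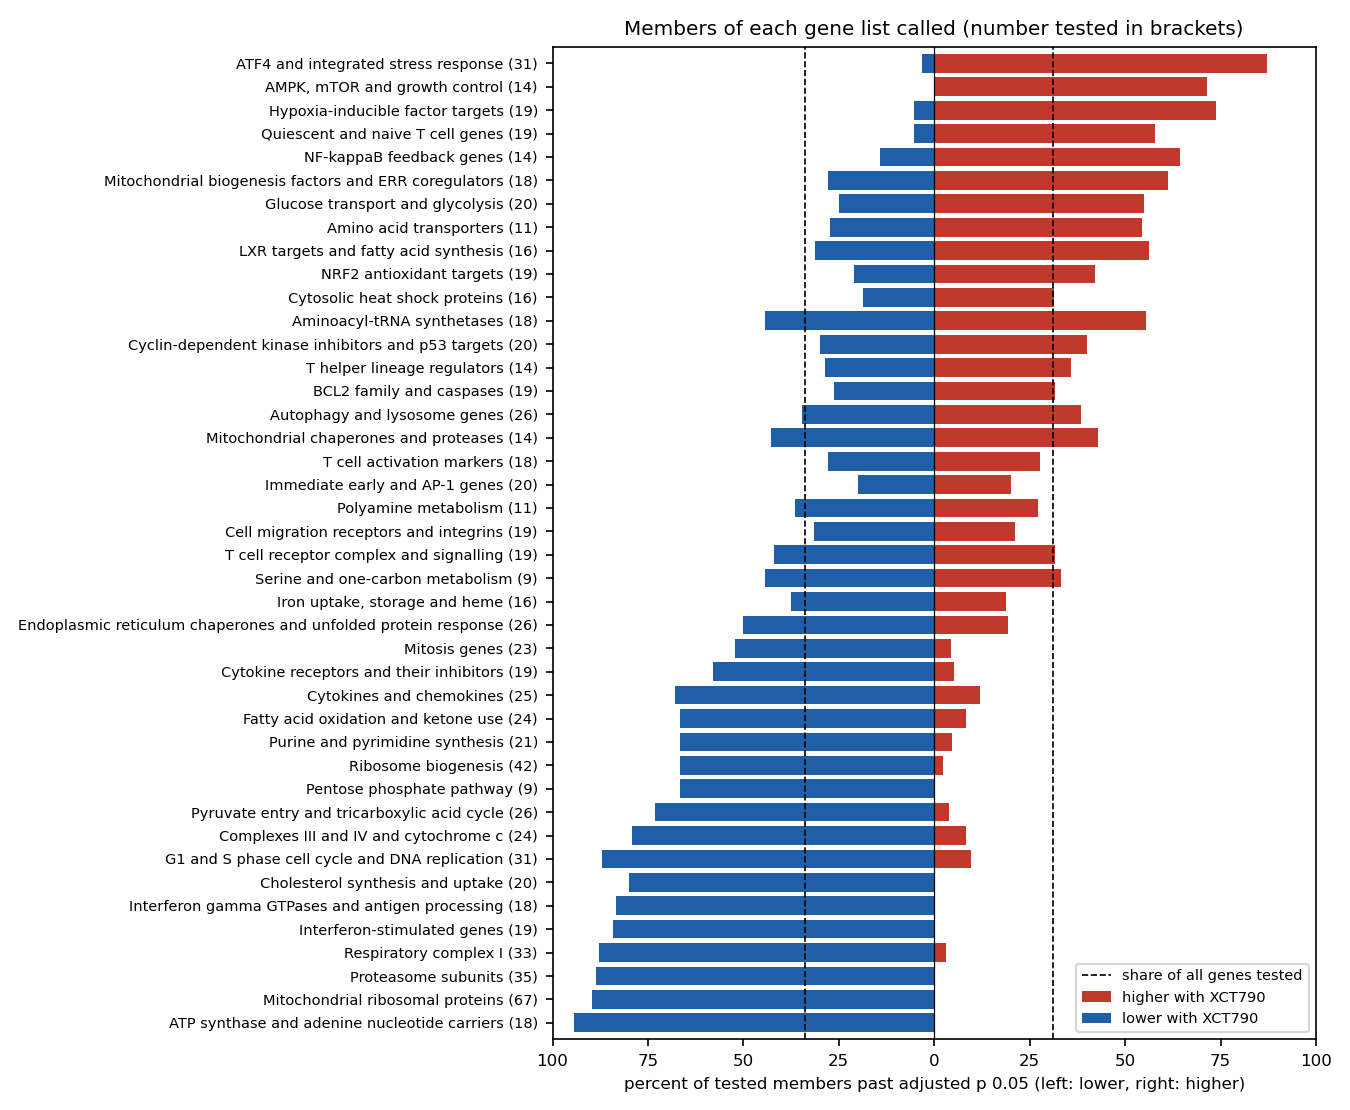
Percent of tested members of each list with 9 or more tested genes that were higher (red, right) or lower (blue, left) with XCT790 at a limma adjusted p under 0.05, with the number tested in brackets and dashed lines at the shares of all 6873 genes, 31.2% and 33.8%. ATF4-linked genes are at the top with 27 of 31 higher and the ATP synthase list at the bottom with 17 of 18 lower.

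Several of the largest differences fell outside these lists. Myo6, an actin motor, read 2.15, 2.29 and 2.29 with XCT790 and 9.20, 9.75 and 9.92 in the knockout and was at least 49.3-fold lower (limma adjusted p = 7.79e-11). All XCT790 arrays were near the bottom of the scale, whereas resting wild-type cells read 7.06 ± 0.27 (SD, n = 3), so the level lay below that of rest. Crabp2, which carries retinoic acid to its receptor, read 2.31, 2.27 and 2.31 against 9.67, 9.25 and 9.04, and resting cells were near its XCT790 level (2.26 ± 0.00). Pros1, protein S, a ligand of the TAM receptors, read 2.15, 2.84 and 2.15 against 8.14, 8.65 and 8.67 and was at least 22.4-fold lower, with resting cells at 2.46 ± 0.09. Arrb1, beta-arrestin, read 7.78, 7.86 and 7.95 against 3.52, 3.66 and 4.32 and was 13.5-fold higher, close to rest (8.10 ± 0.22). Rell1, a TNF receptor family relative, read 8.73, 7.69 and 7.76 against 3.75, 3.23 and 3.13 and was at least 16.7-fold higher. Rell1 was also lower in stimulated knockout than in stimulated wild-type cells (-1.86 ± 0.27, adjusted p = 0.000538), and against stimulated wild type it was higher with XCT790 by 2.83 ± 0.27.

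The 606 genes that were higher and the 738 that were lower by at least 2-fold were also read in arrays that the comparison did not use. Compound A against stimulated wild type raised 258 of the 606 (42.6%) and lowered 18 (2.97%), where 14.4% of all genes were higher and 18.6% lower. It lowered 317 of the 738 (43%) and raised 28 (3.79%). With stimulation of wild-type cells, 369 of the 606 had fallen (60.9%, against 38.3% of all genes) and 93 had risen, and 388 of the 738 had risen (52.6%, against 36.8%) and 193 had fallen. At the same 20 µM dose, and at the same time if both sets were stimulated as the protocol says, XCT790 and compound A arrays themselves differed in 5427 of 10691 probe sets (50.8%), with 2668 higher with XCT790 (25%) and 2759 lower (25.8%). Vegfa differed by 6.12 ± 0.09 between the compounds, Trib3 by 4.99 ± 0.34 and Slc2a3 by 3.41 ± 0.11 (limma adjusted p = 7.1e-16, 6.55e-08 and 2.99e-11). Myo6 read 8.34 ± 0.31 and Usp18 7.99 ± 0.41 with compound A (SD, n = 3), and these differed from XCT790 by -6.10 ± 0.28 and -4.13 ± 0.33. For Mrpl17 and Atp5l the compound A levels of 11.33 ± 0.09 and 12.60 ± 0.06 exceeded the XCT790 levels, with differences of -1.04 ± 0.07 and -0.81 ± 0.06.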

How the data were processed

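RNA of purified CD4+ T cells was measured on 18 Affymetrix mouse arrays, 3 in each of 6 groups taken from the sample titles. The authors deposited log2 GCRMA values, per the submitters' processing notes, and no version or genome build is given in the sources used here. GCRMA corrects background by probe sequence, and all 18 arrays held identical sorted values (1.83 to 15.4), which fixes each array's distribution and leaves a difference relative to the other genes. No further normalization was applied. Of 22690 probe sets, 20380 had 1 gene in the platform annotation, 691 had several, 1555 had none and 64 were controls. Symbols were updated through RefSeq for 20351 of them.

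limma (version 3.58.1 in R 4.3.3) was fitted to 10691 probe sets with log2 4 or more on at least 3 arrays, with 1 mean per group, and Benjamini-Hochberg adjusted p under 0.05 was called. Folds against a group under log2 4 on all arrays were set against that floor, and single arrays under it were set to it. The SE and p-values rest on a single variance per probe set, pooled over the 6 groups (12 residual degrees of freedom). They therefore do not measure the spread within the 2 compared groups alone. Vegfa, for example, had a SD of 0.24 on the XCT790 arrays and 0.00 on the knockout arrays. The number of 3 arrays a group limits the precision. Same-numbered XCT790 and knockout arrays deviated together (correlations of 0.23, 0.16 and 0.12). Arrays 2 and 3 did so as much across numbers (0.19 and 0.13), so these values do not show that the number pairs the arrays. The main fit used no pairing, and a block by number was tried as an alternative.

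The comparison, its members and the 46 gene lists were chosen with earlier results of these data known. Named genes were Esrra, the 12 largest rises and falls that passed without overlap, the members of smallest adjusted p in each list (up to 4), and a short list of genes of activation, metabolism and stress. Other genes were named after their values were seen. Promoter motifs were matched in RefSeq windows of GRCm38.p6. Alternatives were the filter, probe set or gene, the block, the groups in the fit, the prior, array weights, a common median and leaving out arrays. Promoter elements other than the ATF4 and ERR ones are not reported. Figures were drawn with matplotlib 3.10.9.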

Additional observations from a re-analysis of the deposited data

Results flagged for a closer look

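The dap spike-in, a bacterial RNA added to each sample as a control, lies outside the gene comparisons, and its 5' probe set stood higher on both compared groups than on untreated wild-type arrays. It read 8.29 ± 0.19 on the XCT790 arrays and 7.79 ± 0.21 on the stimulated knockout arrays (SD, n = 3), against a mean of 5.11 over the 6 untreated wild-type arrays, which ranged from 3.99 to 6.38. The other 12 arrays ranged from 7.45 to 8.51. Both compared groups lie on the same side of this split, whereas comparisons with stimulated wild-type cells cross it. Its part in those comparisons was not tested.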

How the results depend on the processing

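The count of 6906 probe sets for XCT790 against stimulated knockout ranged from 6341 to 6679 when any of the 6 arrays was left out, and was 6790 without the filter, 6455 with a floor of log2 6, 6414 with the compared groups alone, 6922 with a trended and robust prior, 8753 with array weights, 6913 with a common median and 7181 with arrays 2 and 3 alone, the last setting having been chosen after seeing the data. With the replicate number as a block it was 7048. Among named genes that block changed only the calls of Cd8b1, Jchain, S100a8, S100a9 and Pf4, all of which passed with it. Counted over genes, with fewer features by construction, the counts for 1 probe set per gene and for the mean of a gene's probe sets were 4482 and 4445 here, 3617 and 3609 for XCT790 against compound A, 4534 and 4544 for XCT790 against stimulated wild type, 150 and 248 for stimulated knockout against stimulated wild type, 5180 and 5149 for stimulated against resting wild type, 2283 and 2382 for compound A against stimulated wild type, and 1308 and 1497 for resting knockout against resting wild type. Leaving out single arrays gave 316 to 502 for the stimulated knockout against stimulated wild type, which became 2702 with array weights and 974 with arrays 2 and 3 alone. It gave 1231 to 2440 for the resting knockout against resting wild type, with 1424 without resting wild-type array 2 and 1231 without array 3, and that comparison became 499 in a fit of its own 2 groups and 3445 when arrays were weighted. Compound A against stimulated wild type became 6269 with array weights. The causes were not tested. Without single arrays the other ranges were 4693 to 5374 for XCT790 against compound A, 6585 to 6950 for XCT790 against stimulated wild type, 7544 to 7607 for stimulation and 2643 to 3413 for compound A. The activation score difference of -1.05 became -0.75 with a 2-fold limit, and ranged from -1.13 to -0.95 without single arrays. Over the named genes 3551 alternative values kept their direction and side of the threshold, 29 newly passed, 38 no longer passed and 2 reversed: Klrd1 was -0.37 with array weights and -0.39 with arrays 2 and 3 alone. Of the list counts 1369 stayed within 1.5 times and 103 did not. In 111 of 2525 genes with several tested probe sets, sets were called in opposite directions. On each array 11025 probe sets (48.6%) reached log2 4, and below it a difference is only a bound.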

Other observations

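Of 16 genes of xenobiotic sensing on the array 11 lay under the filter. The 5 that were tested were all higher with XCT790 than in the stimulated knockout, where 31.2% of all genes were higher. Abcb1a, the drug efflux pump P-glycoprotein, read 7.41, 5.18 and 6.23 with XCT790 and 2.56, 3.21 and 3.21 in the knockout, where it was under log2 4 on all arrays (difference 3.28 ± 0.76, limma adjusted p = 0.00162). Tiparp, a target and brake of the aryl hydrocarbon receptor, read 9.25, 7.99 and 8.39 against 7.73, 6.88 and 6.75, and Ahr, the receptor itself, differed by 0.82 ± 0.20. Of 19 genes of the NRF2 antioxidant response 8 were higher and 4 lower. Nfe2l2, which encodes NRF2 and is counted in both lists, differed by 1.24 ± 0.16 and its partner Mafg by 1.27 ± 0.14. Taldo1, of the pentose phosphate pathway, was lower (-0.86 ± 0.08). Taldo1, Pgd and Tkt are also counted as lower in the pentose phosphate list. Hmox1, heme oxygenase, differed by 1.02 ± 0.31 (adjusted p = 0.0105) and missed the threshold without XCT790 array 1 or knockout array 3.

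Genes of polyamine metabolism were called at near the shares of all genes. Sat1 and Smox, which break polyamines down, differed by 1.13 ± 0.12 and 1.89 ± 0.25, and Srm, spermidine synthase, and Mtap, which recycles its by-product, by -1.03 ± 0.15 and -0.90 ± 0.11 (limma, all past the threshold). Odc1, the first enzyme of synthesis, was higher (0.62 ± 0.18). The list held 11 tested genes, 3 higher and 4 lower (27.3% and 36.4%, against 31.2% and 33.8% of all genes). In iron and heme metabolism 3 of 16 were higher and 6 lower (18.8% and 37.5%). Fech, the last enzyme of heme synthesis, read 5.30, 6.54 and 6.16 with XCT790 against 7.01, 7.15 and 7.39 in the knockout. The zinc-binding metallothionein Mt1 read 6.08, 5.34 and 4.61 against 5.11, 2.73 and 2.72 and overlapped between the groups because knockout array 1 was high, and Mt2 differed by 1.08 ± 0.38. Neither call held without XCT790 array 1. Of 5 tested sex-linked transcripts 3 were higher and 1, Eif2s3x, lower (-0.19 ± 0.07, with 0.26 and -0.15 from its other tested probe sets). The Eif2s3x call was lost when any of the 6 arrays other than XCT790 array 2 was left out. Of the Y-linked transcripts Uty, a histone demethylase relative, read 6.82, 6.64 and 6.70 with XCT790 and 4.93, 4.76 and 4.86 in the knockout, and its X-linked partner Kdm6a differed by 0.96 ± 0.10. Kdm5d differed by 0.55 ± 0.16, a call that was lost with the compared groups alone (limma adjusted p = 0.0596), and Eif2s3y did not pass (0.12 ± 0.09).

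Of 50 genes beside Esrra on chromosome 19, 15 were tested by limma. With XCT790 against the knockout 1 was higher and 7 lower, against 31.2% and 33.8% of all genes. Between stimulated knockout and stimulated wild type 0 differed, where only 2.05% of all genes were higher and 0.902% lower, so 15 genes are too few to read this count. The median of the 15 genes in the first comparison was -0.41, against -0.01 over all genes.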
